A study of Mus musculus with 10 samples.

Results

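The 10 genes described here encode interferon-induced effector proteins: Ifitm1, Ifitm2, Ifitm3, Ifi27, Ifi27l2a, Bst2 (tetherin), Herc6, Parp9, Parp14 and Dtx3l. They were taken by name, with all 16 probe sets annotated to 1 of these genes alone, out of 18193 genes with 34945 such probe sets on the array. The probe set of highest mean signal over all tumors stood for each gene, and 6 of the 10 genes had 1 probe set. Expression was measured on 1 Affymetrix mouse genome array per tumor, in mammary tumors that arose spontaneously in female FVB/N-Tg(MMTVneu) mice (Tg-neu). All of these mice, controls included, carry the neu proto-oncogene under the MMTV promoter, which is active mainly in mammary epithelium. Lovastatin (Lov), an inhibitor of HMG-CoA reductase in the mevalonate pathway, was injected intraperitoneally at 10 mg/kg 3 times a week for 6 weeks from the first palpable tumor (Lov-treated; 5 tumors, labelled A19, A48, A50, A55, AB10). Control mice received the ethanol vehicle on that schedule (Vhcl-treated; 5 tumors, labelled A45, A49, A54, A59, AB11), although a free-text label calls the control tumors untreated. The labels give 5 mice per group, no age, and no link from each tumor to a mouse, so the p-values measure the spread between these tumors. Values of single tumors are given in the order of these labels throughout.

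Type I interferons signal through the receptor Ifnar1/Ifnar2 and the kinases Jak1 and Tyk2 to a complex with Stat2 and Irf9, which binds the interferon-stimulated response element (ISRE) at its target genes. The products of these targets act on viruses at many steps. Ifitm proteins hinder fusion of virus with cell membranes, tetherin holds budding virus particles at the cell surface, Herc6 is the mouse ligase that attaches the ubiquitin-like Isg15 to other proteins, and Parp9 works with the ubiquitin ligase Dtx3l. In tumors the same genes can be expressed by cancer cells, leukocytes and vessels.

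The tumors were measured whole. Luminal epithelial markers were present at similar summed linear signals in both groups (22800 to 28757 in Vhcl-treated and 22428 to 27475 in Lov-treated tumors, exact permutation p = 0.627, 10 of 10 markers measured). Of these markers 8 had a lower mean with Lov and 2 a higher one, with a median log2 difference of -0.13. At an unadjusted limma p under 0.05, 0 were lower and 1 was higher. This was Cd24a, higher with Lov by 0.45 on the log2 scale (exact permutation p = 0.0317). Array medians lay between 4.97 and 5.05 log2 units and correlations between arrays between 0.969 and 0.990. Tumor AB11 stood apart by its salivary gland markers, with a summed linear signal of 38601, against 165 to 2295 in the other Vhcl-treated tumors and 80 to 444 in the Lov-treated tumors (6 of 7 markers measured, exact permutation p = 0.0238 between groups). Without AB11, the log2 differences between Lov and Vhcl were -1.38 for Ifitm3, -1.88 for Ifi27l2a, -0.78 for Bst2, -1.44 for Herc6, -0.68 for Parp9, -0.38 for Parp14 and -0.41 for Dtx3l. AB11 was also the Vhcl-treated tumor with the lowest mean of these 7 genes.

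With Lov, 8 of the 10 genes had a lower mean signal and 2 a higher one. The difference was below 0 at an unadjusted limma p under 0.05 in 7 of them, namely Ifitm3, Ifi27l2a, Bst2, Herc6, Parp9, Parp14 and Dtx3l. By the same rule 2.75% of all 18193 genes were lower, and none of the 10 genes was higher. In 2 of the 10 (Ifi27l2a and Parp9) every Lov-treated tumor lay below every Vhcl-treated one, against 0.346% of all genes, and 3 (Ifi27l2a, Ifitm3 and Herc6) were lower by a factor of 2 or more with an unadjusted p under 0.02, against 0.264% of all genes. The median log2 difference of the 10 genes was -0.50, and that of all genes 0.002. After Benjamini-Hochberg adjustment over 45037 probe sets, 0 of the members and 0 of all probe sets passed a false discovery rate of 0.05 with limma, with or without moderation of the variance, whereas 2379 had an unadjusted limma p under 0.05 (971 lower, 1408 higher). The genes were listed with results of these tumors known, and probe sets of Ifitm3, Ifi27l2a and Herc6 stand in the study's own list of genes lowered by Lov, so these counts are descriptions and not independent evidence of direction.

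**Figure D1:**
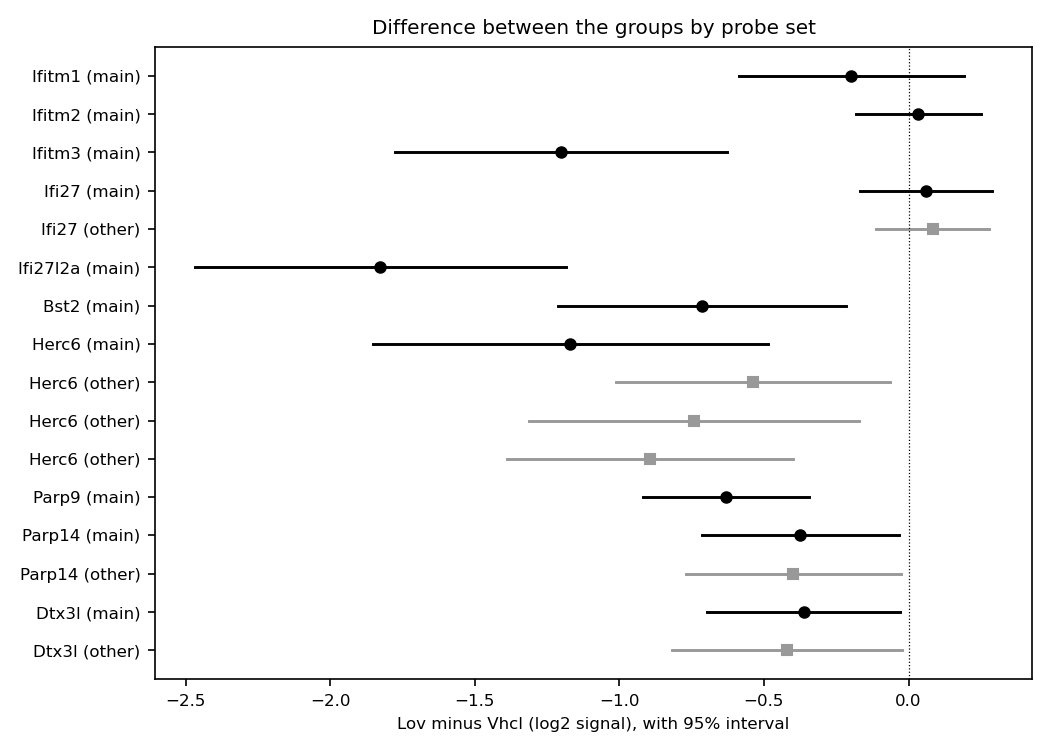
Log2 difference in signal, Lov minus Vhcl (x axis), of the 16 probe sets (y axis, main probe set of each gene in black, others in grey), with limma's 95% interval as bars. The intervals of Ifitm1, Ifitm2 and both Ifi27 probe sets span 0, and the other 12 lie below it.

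The Ifitm genes lie in a cluster on chromosome 7. In the RefSeq gene table (GRCm38.p6), Ifitm1 has no protein-coding gene between it and Ifitm2 or Ifitm3. Their starts are shown because the members of this cluster differed in their matches to an interferon-type motif. The 250 bases before each start and, for Ifitm3, a stretch of 30 bases across the start are printed 5′ to 3′ on the strand of the gene, with matches to GAAANNGAAA (the core of an ISRE, searched on both strands) in capitals. Windows were taken from RefSeq, build GRCm38.p6, and 6 of the 10 genes had 1 (Ifitm1, Ifitm2, Ifitm3, Bst2, Herc6 and Dtx3l).
Ifitm3, chr7:141010745-141010994, minus strand, before the start: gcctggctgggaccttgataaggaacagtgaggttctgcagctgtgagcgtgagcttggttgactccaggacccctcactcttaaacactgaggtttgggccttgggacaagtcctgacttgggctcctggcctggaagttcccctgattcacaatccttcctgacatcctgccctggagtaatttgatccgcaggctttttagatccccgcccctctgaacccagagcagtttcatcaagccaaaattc
Ifitm3, chr7:141010716-141010745, minus strand, across the start: cagGAAAAGGAAActtctgaGAAACCGAAA
Ifitm2, chr7:140955962-140956211, minus strand, before the start: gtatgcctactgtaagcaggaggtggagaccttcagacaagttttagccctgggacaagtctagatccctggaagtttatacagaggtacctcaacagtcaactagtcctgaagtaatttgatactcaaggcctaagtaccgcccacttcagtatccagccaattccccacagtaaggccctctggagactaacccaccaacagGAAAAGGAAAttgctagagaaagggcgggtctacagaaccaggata
Ifitm1, chr7:140967826-140968075, plus strand, before the start: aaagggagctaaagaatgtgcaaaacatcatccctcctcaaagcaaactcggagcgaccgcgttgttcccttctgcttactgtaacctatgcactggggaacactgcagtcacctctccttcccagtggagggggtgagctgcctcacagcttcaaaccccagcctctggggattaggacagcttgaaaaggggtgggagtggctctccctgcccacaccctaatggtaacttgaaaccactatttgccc
Ifitm3 had matches 2 and 19 bases after its start, Ifitm2 had 1 match 46 bases before its start, and Ifitm1 had none in its window of 300 bases (250 before and 50 after the start). The letters of the Ifitm2 match and of the nearer Ifitm3 match were the same, GAAAAGGAAA. In all, 1131 of 32851 promoter windows of this length (3.44%) held such a match, 3 of the 6 windows of these genes did, and 12 of 40 windows of other interferon-stimulated genes did. The windows of Herc6 and Dtx3l, genes lower with Lov at an unadjusted limma p under 0.05, held no match. A match describes letters and does not show binding. A link between matches and the differences between groups was not tested.

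Ifitm3, which blocks virus entry from endosomes, had log2 signals of 12.02, 11.93, 11.45, 12.24 and 11.01 in the Vhcl-treated tumors and of 11.06, 10.29, 10.76, 10.68 and 9.85 in the Lov-treated ones. In 4 of 5 Lov-treated tumors Ifitm3 was below every Vhcl-treated tumor, and A19 exceeded AB11 alone. The means were 11.73 ± 0.50 (SD, n = 5) and 10.53 ± 0.47 (SD, n = 5), a log2 difference of -1.20 ± 0.26 (SE) or 2.30-fold lower with Lov (limma p = 0.00069, adjusted p = 0.857, exact permutation p = 0.0159).

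Ifitm2, which also acts in endosomes, had log2 signals of 11.27, 11.00, 10.84, 11.10 and 11.10 in the Vhcl-treated tumors and of 11.09, 10.97, 11.25, 11.07 and 11.10 in the Lov-treated ones. The groups overlapped throughout, and the log2 difference was 0.03 (95% interval -0.18 to 0.25, limma adjusted p = 0.995). Ifitm1, found mainly at the cell surface, had log2 signals of 4.95, 5.25, 5.46, 5.59 and 5.82 with Vhcl and of 5.66, 5.20, 5.03, 4.91 and 5.28 with Lov. These groups overlapped as well, with a log2 difference of -0.20 (95% interval -0.59 to 0.19, limma adjusted p = 0.988). The mean signals of Ifitm1, 5.41 with Vhcl and 5.22 with Lov, lay close to the array medians (4.97 to 5.05), which limits what its difference and ratios show. Such intervals do not show that Lov left Ifitm1 or Ifitm2 unaltered.

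Within each tumor, the log2 ratio of Ifitm3 to Ifitm2 lay between -0.09 and 1.14 with Vhcl and between -1.25 and -0.03 with Lov. The groups differed by -1.24 (exact permutation p = 0.0159, adjusted 0.0397 over the 5 pairs of genes compared in this way). For Ifitm3 against Ifitm1 the ratio differed by -1.004 (exact permutation p = 0.0397, adjusted 0.0661). The pairs were chosen with the values known. Because Ifitm2 differed little, its ratio mostly repeats the difference of Ifitm3. Among the other family members, Ifitm5, Ifitm6, Ifitm7 and Ifitm10, 0 of 4 had an unadjusted limma p under 0.05 in either direction, with log2 differences of -0.20, -0.05, 0.11 and 0.04. The mean signals of 3 of these 4 (Ifitm5, Ifitm6 and Ifitm7) were under the lowest array median in both groups, so these differences say little about their expression.

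**Figure D2:**
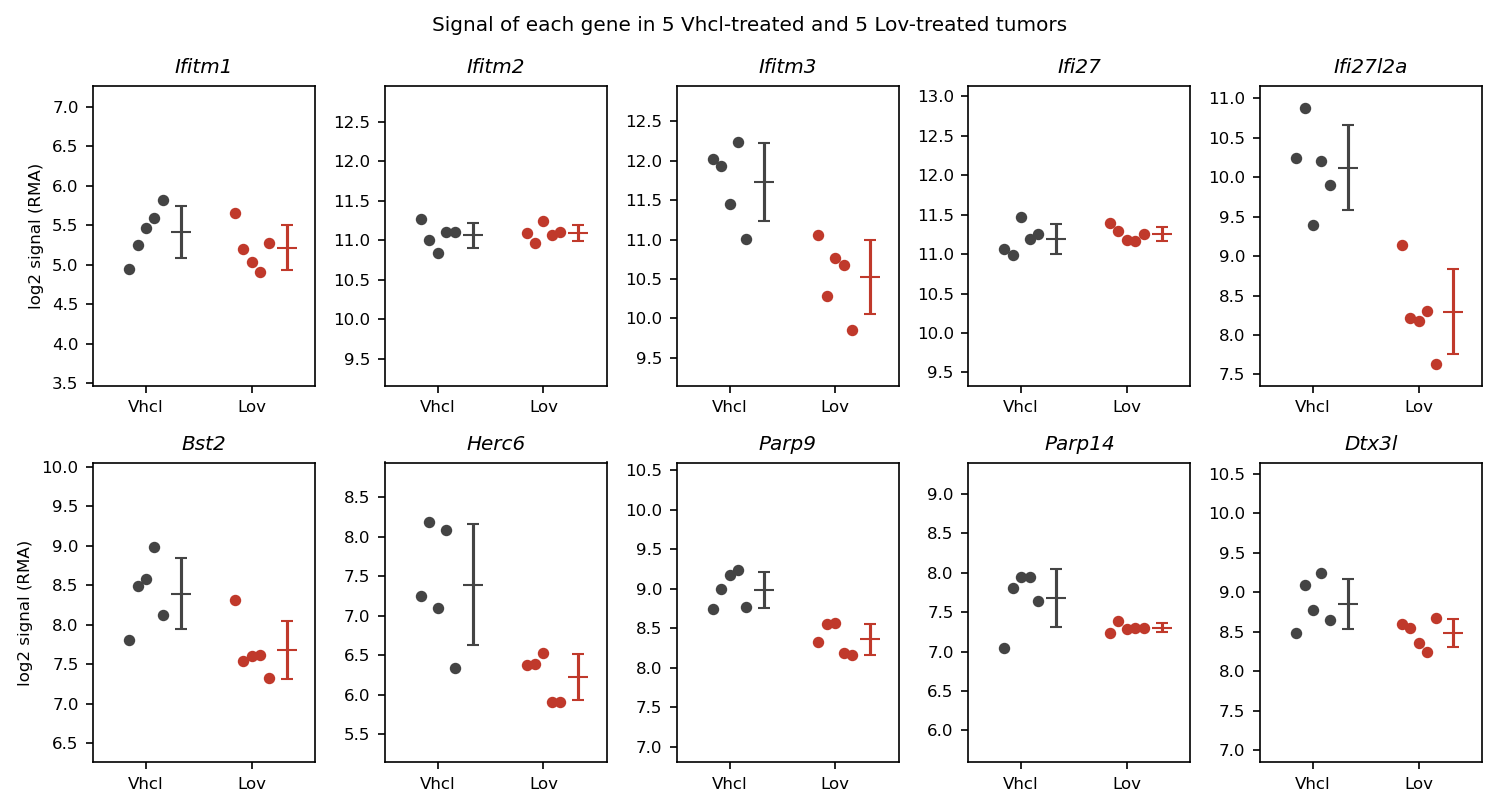
Log2 signal (RMA, y axis) of each gene in 5 Vhcl-treated (dark) and 5 Lov-treated (red) tumors, with the mean and SD of each group beside the points. All panels span the same number of log2 units, and Ifi27l2a and Parp9 show no overlap between the groups.

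Ifi27l2a and Ifi27 encode small hydrophobic proteins of the ISG12 family, and the gene table places them on chromosome 12 as overlapping genes. Ifi27l2a showed the largest difference of the 10 genes. Its log2 signals were 10.24, 10.88, 9.39, 10.20 and 9.90 in the Vhcl-treated tumors and 9.14, 8.22, 8.18, 8.31 and 7.63 in the Lov-treated tumors. All Lov-treated tumors were below all Vhcl-treated ones, the nearest being A19 at 9.14 and A54 at 9.39. The means were 10.12 ± 0.54 (SD, n = 5) and 8.30 ± 0.54 (SD, n = 5), giving a log2 difference of -1.83 ± 0.29 (SE) or 3.55-fold lower with Lov (limma p = 5.12e-05, adjusted p = 0.377, exact permutation p = 0.00794, the smallest that 5 tumors against 5 can give).

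Ifi27, in contrast, had log2 signals of 11.06, 10.99, 11.47, 11.19 and 11.26 with Vhcl and of 11.39, 11.29, 11.18, 11.16 and 11.25 with Lov. The groups overlapped, and the log2 difference was 0.06 (95% interval -0.17 to 0.29, limma adjusted p = 0.992) by the main probe set and 0.08 (95% interval -0.11 to 0.28) by the other. The within-tumor log2 ratio of Ifi27l2a to Ifi27 differed by -1.89 between groups, with no overlap (-2.08 to -0.11 with Vhcl, -3.62 to -2.25 with Lov, exact permutation p = 0.00794, adjusted 0.0397 over the 5 pairs). Because Ifi27 differed by only 0.06, this ratio mostly repeats the difference of Ifi27l2a. This pair, too, was chosen with the values known, so the ratio is not further evidence. The neighboring gene Ifi27l2b had a log2 difference of -0.27 (exact permutation p = 0.317). Older annotations use the name Ifi27 for the gene called Ifi27l2a here.

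Bst2 encodes tetherin, which plasmacytoid dendritic cells and plasma cells carry without stimulation and most other cells acquire with interferon. Its promoter is shown because it held matches to the ISRE core before the start, at 130 and 124 bases, which overlap each other and appear as 1 run of capitals.
Bst2, chr8:71537473-71537722, minus strand, before the start: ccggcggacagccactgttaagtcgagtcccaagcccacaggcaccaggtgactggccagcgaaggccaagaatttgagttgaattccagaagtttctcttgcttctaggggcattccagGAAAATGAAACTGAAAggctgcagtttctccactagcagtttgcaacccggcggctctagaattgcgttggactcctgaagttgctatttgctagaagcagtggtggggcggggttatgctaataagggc
A match to TTCNNNGAA, the core of the interferon gamma-activated element (GAS), lay 136 bases before the start of Bst2, partly inside that run, and another lay 13 bases after the start of Ifitm3. Of all windows 8.3% held such a match, as did 2 of the 6 windows of these genes.

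The log2 signals of Bst2 were 7.80, 8.49, 8.58, 8.98 and 8.12 in the Vhcl-treated tumors and 8.31, 7.54, 7.60, 7.62 and 7.33 in the Lov-treated tumors. In 4 of 5 Lov-treated tumors Bst2 was below every Vhcl-treated tumor, while A19 exceeded A45 and AB11. The means were 8.39 ± 0.45 (SD, n = 5) and 7.68 ± 0.37 (SD, n = 5), a log2 difference of -0.71 ± 0.23 (SE) or 1.64-fold lower with Lov (limma p = 0.00897, adjusted p = 0.919, exact permutation p = 0.0317). Plasmacytoid dendritic cell markers, 7 of 8 measured, had summed linear signals of 350 to 512 with Vhcl and 360 to 673 with Lov (exact permutation p = 0.405), and B and plasma cell markers, 7 of 8 measured, 325 to 649 and 306 to 549 (exact permutation p = 1). Of these, 3 of 7 and 5 of 7 had a mean under the median of all probe sets. In the first list 4 markers had a lower mean with Lov and 3 a higher one, with a median log2 difference of -0.10. Tcf4, 1 of the higher ones, had the highest mean log2 signal (7.60 with Vhcl and 7.98 with Lov) and so weighs most in the sum. Siglech, at 5.22 and 5.34, adds little to it. In the second list 5 markers had a lower mean with Lov and 2 a higher one, with a median log2 difference of -0.14. Sdc1, which epithelium also expresses, had the highest mean log2 signal there (7.70 with Vhcl and 8.06 with Lov). Sdc1 differed by 0.36 and Jchain, the joining chain of plasma cell antibodies, by -1.05 on the log2 scale (exact permutation p = 0.325 and 0.222). That sum thus joins opposed members and weighs Sdc1 most.

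Herc6 was read by 4 probe sets, all lower with Lov at an unadjusted limma p under 0.05. By the main probe set its log2 signals were 7.25, 8.18, 7.10, 8.09 and 6.33 in the Vhcl-treated tumors and 6.37, 6.39, 6.53, 5.91 and 5.90 in the Lov-treated tumors. Tumor AB11 lay among the Lov-treated tumors, and the other 4 Vhcl-treated tumors exceeded all of them. The means were 7.39 ± 0.77 (SD, n = 5) and 6.22 ± 0.29 (SD, n = 5), a log2 difference of -1.17 ± 0.31 (SE) or 2.25-fold lower with Lov (limma p = 0.00295, adjusted p = 0.919, exact permutation p = 0.0317). The other probe sets differed by -0.54, -0.74 and -0.89 on the log2 scale (exact permutation p = 0.0794, 0.0714 and 0.0238). The last of these had mean log2 signals of 4.91 with Vhcl and 4.02 with Lov, both under the lowest array median (4.97). The one before it had 5.44 and 4.69, close to that median, which limits what these 2 probe sets show.

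Genes of the pathway that joins Isg15 to proteins were compared beside Herc6. The protease that removes Isg15, Usp18, differed by -1.60 on the log2 scale (exact permutation p = 0.00794) and the conjugating enzyme Ube2l6 by -0.54 (exact permutation p = 0.0238). The activating enzyme Uba7 differed by -0.34 (exact permutation p = 0.19). Isg15 had no probe set of its own. Of Herc1 to Herc4, the relatives of Herc6, 0 of 4 had an unadjusted limma p under 0.05 in either direction, with a median log2 difference of 0.13.

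Parp9, Dtx3l and Parp14 adjoin on chromosome 16, where the gene table has Parp9 and Dtx3l overlapping and no protein-coding gene between Parp9 and Parp14. Parp9, a partner of Dtx3l in modifying proteins at DNA breaks and in interferon signaling, had log2 signals of 8.75, 9.0, 9.18, 9.24 and 8.77 in the Vhcl-treated tumors. In the Lov-treated tumors Parp9 had 8.32, 8.55, 8.57, 8.19 and 8.16. The groups did not overlap for Parp9. The means were 8.99 ± 0.23 (SD, n = 5) and 8.36 ± 0.19 (SD, n = 5), a log2 difference of -0.63 ± 0.13 (SE) or 1.55-fold lower with Lov (limma p = 0.000472, adjusted p = 0.856, exact permutation p = 0.00794).

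For Dtx3l, the ubiquitin ligase of the pair, log2 signals were 8.48, 9.09, 8.77, 9.25 and 8.65 with Vhcl and 8.60, 8.55, 8.36, 8.24 and 8.68 with Lov. Vhcl-treated tumors A49, A54 and A59 exceeded every Lov-treated tumor and the other two did not. The log2 difference was -0.36 ± 0.15 (SE), or 1.29-fold lower (limma p = 0.0359, adjusted p = 0.932, exact permutation p = 0.0714). A second probe set differed by -0.42 (exact permutation p = 0.111).

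Parp14, which adds single ADP-ribose units to proteins, had log2 signals of 7.05, 7.81, 7.94, 7.94 and 7.64 with Vhcl and of 7.23, 7.39, 7.29, 7.30 and 7.30 with Lov. The Lov-treated tumors spanned 0.16 log2 units and the Vhcl-treated ones 0.89, and A45 was the lowest tumor of all while the other 4 Vhcl-treated tumors exceeded every Lov-treated one. The log2 difference was -0.37 ± 0.16 (SE), or 1.30-fold lower (limma p = 0.0344, adjusted p = 0.932, exact permutation p = 0.0635), and -0.40 by the second probe set (exact permutation p = 0.0556). The within-tumor ratios of Parp9 to Dtx3l and to Parp14 differed by -0.27 and -0.26 log2 units (exact permutation p = 0.135 and 0.0873, adjusted 0.135 and 0.109 over the 5 pairs).

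The calls of Parp14 and Dtx3l depended on single tumors and on the setting. The unadjusted limma p of Parp14 stayed under 0.05 in 3 of 10 fits that left out 1 tumor (log2 differences of -0.53 without A45 to -0.31 without A54, and all fits without A49, A54, A59, A19, A50, A55 or AB10 above 0.05), and that of Dtx3l in 6 of 10 (-0.45 to -0.26, above 0.05 without A49, A59, A50 or A55). Ifitm3, Ifi27l2a, Bst2, Herc6 and Parp9 stayed under 0.05 in all 10. With all tumors, both calls were lost when the difference between the 3' and 5' beta-actin signals, a measure of RNA quality, entered as a covariate (log2 differences of -0.26 for Parp14 and -0.22 for Dtx3l) and without moderation of the variance, and that of Dtx3l also under further quantile normalization. This beta-actin difference lay between 0.80 and 1.35 log2 units with Vhcl and between 0.67 and 1.07 with Lov (exact permutation p = 0.206).

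**Figure D3:**
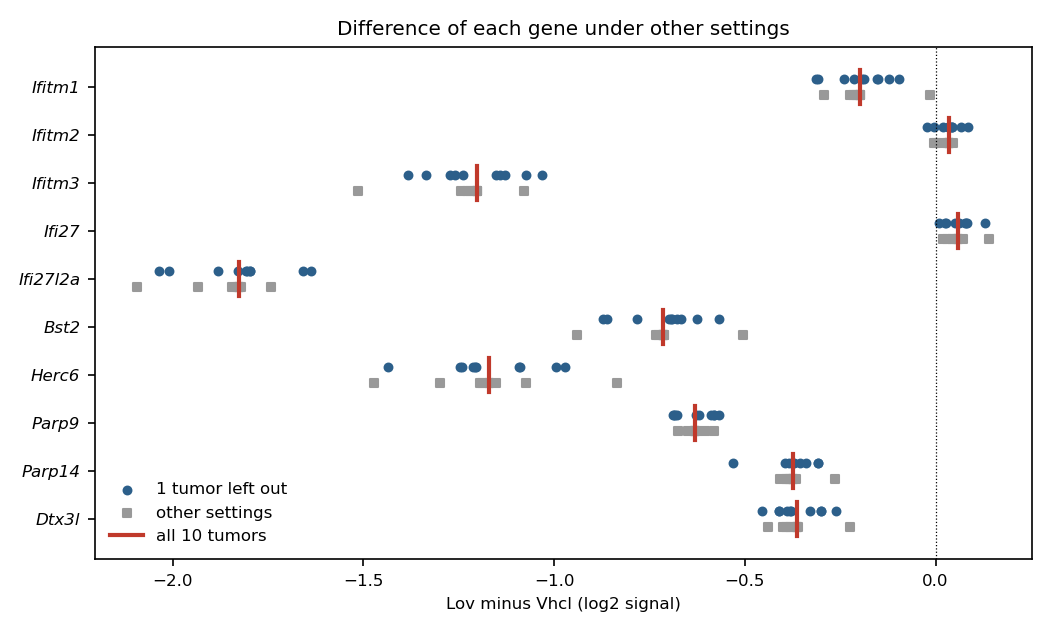
Log2 difference, Lov minus Vhcl (x axis), of each gene (y axis) with all tumors (red line), with 1 tumor left out (blue circles) and under other settings (grey squares). Ifitm3, Ifi27l2a, Bst2, Herc6, Parp9, Parp14 and Dtx3l stayed below 0 throughout, and Ifitm2 lay on both sides of 0.

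Of the other ADP-ribosyltransferases, 2 of 12 measured genes were lower with Lov at an unadjusted limma p under 0.05, against 2.75% of all genes. None was higher, and the median log2 difference was -0.05. The lower ones were Parp12, another interferon-induced enzyme (-0.76, exact permutation p = 0.0159), and Parp16, an enzyme of the endoplasmic reticulum (-0.45, exact permutation p = 0.0238). Among the other Deltex genes, Dtx4 was lower (-0.56, exact permutation p = 0.0159) and Dtx3 higher (0.49, exact permutation p = 0.0952) at an unadjusted limma p under 0.05, of 4 measured.

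The 7 genes lower at an unadjusted p under 0.05 did not take the same order in every tumor. Within the Vhcl group, A59 was highest for 4 of them and A49 for 2 (A54 and A59 tied for Parp14), and A45 was lowest for 4. Within the Lov group, A19 was highest for 3 and AB10 lowest for 5. The mean log2 signal of these 7 genes was 8.80, 9.34, 8.92, 9.42 and 8.63 in the Vhcl-treated tumors and 8.43, 8.13, 8.18, 8.04 and 7.84 in the Lov-treated tumors. These means describe tumors and were not tested, since the genes were picked on this contrast.

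**Figure D4:**
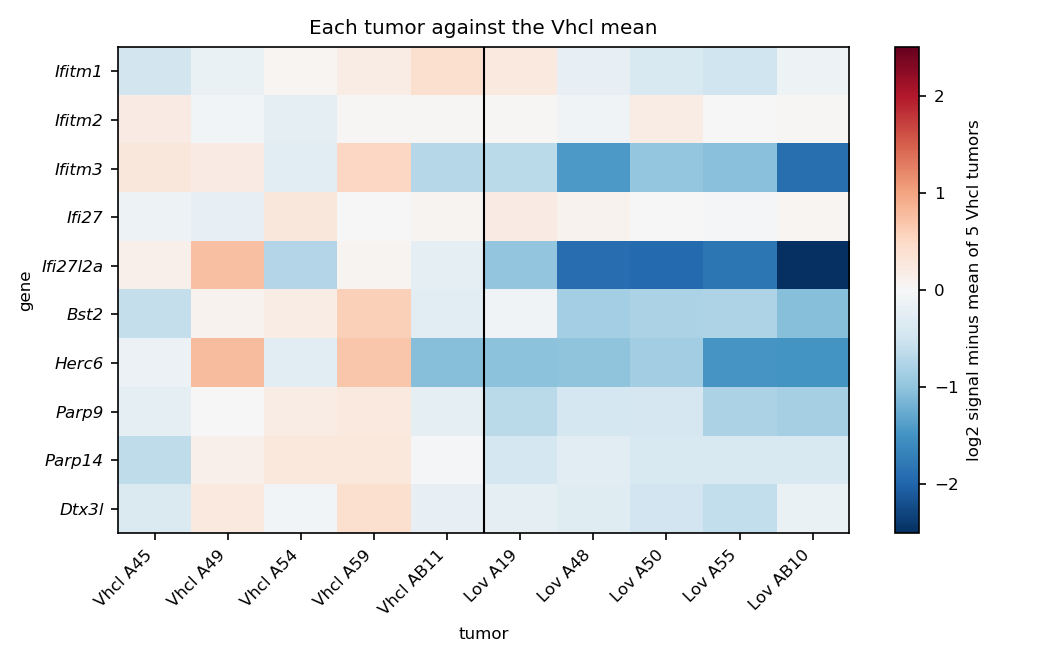
Log2 signal of each gene (y axis) in each tumor (x axis, Vhcl left and Lov right of the line) minus the mean of the 5 Vhcl-treated tumors, as color. Ifitm3, Ifi27l2a and Herc6 are darkest blue in AB10, Ifitm1, Ifitm2 and Ifi27 stay near white, and Bst2 in Lov-treated A19 is near the Vhcl mean.

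Among 32 measured of 35 listed other interferon-stimulated genes, all 32 had a negative log2 difference, against 49.3% of all genes. At an unadjusted limma p under 0.05, 16 were lower, against 2.75% of all genes, and 0 were higher. The median of the 32 was -0.46. In 6 of them every Lov-treated tumor lay below every Vhcl-treated one, against 0.346% of all genes. The lowest p-values belonged to Ifit3 (-1.51), Ifit1 (-1.29) and Ifit2 (-1.25), which bind foreign RNA, and to the antiviral enzyme Rsad2 (-1.65). The mean log2 signal of the 32 genes was 7.65, 8.49, 8.0, 8.41 and 7.78 in the Vhcl-treated tumors and 7.53, 7.49, 7.53, 7.31 and 7.16 in the Lov-treated tumors, so that A49 and A59 were the highest for this list as for the mean of the 7 genes. This list, too, was written with results of these tumors known.

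Of the signal transducers, 2 of 7 measured passed the same rule, which 2.75% of all genes passed in this direction: Stat2 (-0.49, exact permutation p = 0.0238) and Irf9 (-0.28, exact permutation p = 0.0317) were lower with Lov. Of the type I interferon and receptor genes, 0 of 5 measured had an unadjusted limma p under 0.05, and of interferon gamma and its receptor genes 0 of 3 did. The receptor genes Ifnar1 and Ifnar2 differed by 0.004 and -0.20. The interferon genes themselves (Ifnb1, Ifna2, Ifna4 and Ifng) had mean signals under the lowest array median (4.97 log2 units) in both groups, so these values say little about interferon expression.

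**Figure D5:**
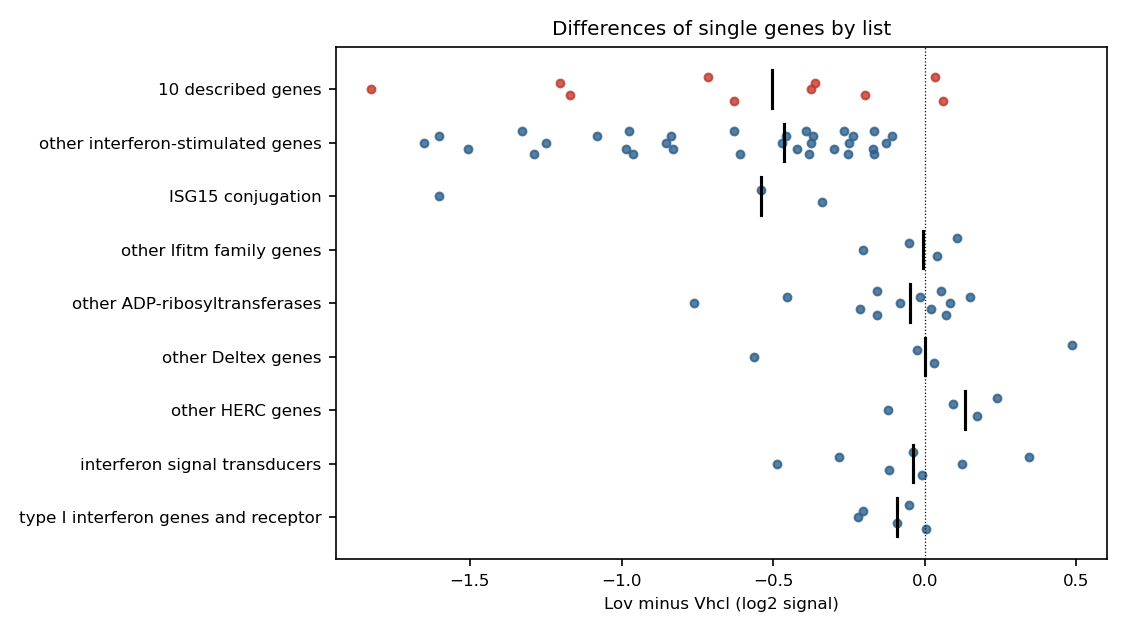
Log2 difference, Lov minus Vhcl (x axis), of single genes in 9 lists (y axis); the vertical bars are medians and the red points are the 10 genes. All 32 other interferon-stimulated genes lie below 0, whereas the other Ifitm, HERC and Deltex genes lie around it.

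Because whole tumors were measured, fewer expressing cells and less RNA per cell cannot be told apart. Leukocyte and macrophage markers (12 of 12 measured) had summed linear signals of 3679 to 6431 with Vhcl and 3311 to 5839 with Lov (exact permutation p = 0.841). Within that list 6 markers had a lower mean with Lov and 6 a higher one, with a median log2 difference of -0.02. At an unadjusted limma p under 0.05, Cd14 (-1.38) and Itgam (-0.34) were lower and Csf1r higher (0.43). By this rule 2.75% of all genes were lower. The mean log2 signals of Itgam, 3.84 with Vhcl and 3.51 with Lov, were under the lowest array median (4.97), so its difference says little. T cell markers (8 of 10 measured) summed to 264 to 344 and 272 to 317 (exact permutation p = 0.373). Of these, 2 had a lower mean with Lov and 6 a higher one, with a median log2 difference of 0.06. Only Cd3g had an unadjusted limma p under 0.05, higher by 0.51, with a mean of 4.62 with Vhcl, under the lowest array median (4.97). Cd8a differed by -0.07 and Cd4 by 0.006. Endothelial markers (10 of 10) summed to 498 to 649 and 531 to 852 (exact permutation p = 0.873). Mean signals under the median of all probe sets were found for 1 of 12 leukocyte, 4 of 8 T cell and 3 of 10 endothelial markers. The part of any of these cells in the differences of the 10 genes was not tested.

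Of the 3 genes most correlated with each member over the 10 tumors, 4 of 30 belonged to the interferon-stimulated list and 0 were members. That list holds 32 of the 18193 genes. Each r named here is among the highest of 18192 others over only 10 tumors, a search in which high values are common. These 4 were Isg20 with Bst2 (Pearson r = 0.948), Adar (0.958) and Oas1a (0.938) with Parp14, and Oasl2 with Parp9 (0.93). After subtraction of each group's mean, Isg20 again came first for Bst2 (r = 0.962) and was the only list gene among 30. Without that subtraction, Slc16a1 followed Herc6 most closely (r = 0.97), Sco1 Ifitm3 (0.959) and Pafah1b3 Ifi27l2a (0.945). Those values include the difference between the groups. With it, other genes ranked first: Slc1a1 for Herc6 (r = 0.965), Bloc1s2 for Ifitm3 (0.969) and Magee1 for Ifi27l2a (0.97). Between members, Ifitm3 and Ifi27l2a had r = 0.912 over all tumors and 0.71 after subtraction, and Parp9 and Dtx3l 0.719 and 0.47. All points share the same 10 tumors, so these values are descriptions.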

How the data were processed

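RNA of 5 Vhcl-treated and 5 Lov-treated mammary tumors had been hybridized to 1 array each. The authors made the values with the RMA algorithm (Robust Multi-array Analysis), and the submitters' processing notes also name affy, with no version. The deposited values are log2 signals with 2 decimals, and no further scaling was applied. Arrays have no sequencing depth, and the number of tumors limits the precision.

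After removal of 64 control probe sets, 45037 were compared between groups with limma 3.58.1 in R 4.3.3 (default empirical Bayes prior, 3.61 prior degrees of freedom, 2-sided, Benjamini-Hochberg adjustment over all of them). Exact permutation tests were 2-sided over all assignments of 5 of 10 tumors. A single gene symbol was annotated to 34945 probe sets, several to 932 and none to 9160. Of the singly annotated, 34741 were found in the mouse gene table (GRCm38.p6, used for names and neighbors; the build used for the arrays is not given in the sources used here). No coordinates were taken from the array files.

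The genes and lists were chosen with earlier results of these data known. Named beside the 10 genes were the genes of lowest p in each list and the 3 genes of highest r. The procedure was tested on simulated data. The alternatives were a trended prior, array weights, Student's test without moderation, array centering, quantile normalization and covariates (tumor ID prefix, beta-actin 3' minus 5' signal). Further ones were the mean of all probe sets, a signal filter, 1 probe set per gene, linear means, and leaving out each tumor, or A19 with AB11. Promoter windows came from RefSeq.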

Additional observations from a re-analysis of the deposited data

Results flagged for a closer look

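Of 32 groups of 5 tumors examined, 1 held a tumor set apart from the rest. By the second probe set of Dtx3l, Lov-treated tumor AB10 had a log2 signal of 7.09, with a gap of 0.57 to the nearest of the other Lov-treated tumors (7.66 to 7.83), which is 0.77 of the range of the group against a critical value of 0.71. By the main probe set of Dtx3l the same tumor, at 8.68, was the highest of the Lov group. About 1 group in 20 is set apart by chance.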

How the results depend on the processing

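Over 200 alternative values for the 10 genes, 179 kept their direction and their side of an unadjusted p of 0.05, 18 kept the direction but went above 0.05 (10 for Parp14, 8 for Dtx3l), and 3 changed sign, all for Ifitm2. Its log2 difference was 0.03 with all tumors, -0.0034 with the beta-actin covariate, and between -0.0215 (without A54) and 0.09 with 1 tumor left out, being -0.0045 without A50. The number of members lower at an unadjusted p under 0.05 was 7, from 5 to 7 with 1 tumor left out (5 without A49, A59, A50 or A55) and 5 under Student's test or the beta-actin covariate. For the other interferon-stimulated genes it was 16, from 14 to 21 with 1 tumor left out. Probe sets past a false discovery rate of 0.05 numbered 0 with all tumors, 0 to 1 with 1 tumor left out (1 without A54), and 4 without A19 and AB11 together, none of them a member. In the mean of the 7 lower genes A19 was the highest Lov-treated and AB11 the lowest Vhcl-treated tumor, so that leaving out the pair widens the difference of that mean by construction. The cause was not tested. No paired analysis was possible because the tumor labels carry no replicate numbers shared between groups. Arrays carry no depth, and with 5 tumors a group the smallest exact permutation p is 0.00794.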
